A study of Homo sapiens with 12 samples.

Results

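The genes described here encode the mTOR complexes, the proteins that carry amino acid, growth factor and stress signals to them, and the direct effectors of mTORC1. They were taken as a list of 52 symbols, and each matched 1 line of a table of 58735 gene lines. All 52 passed the filter on low counts, among 16946 genes that were tested. The list covers mTORC1 (5 genes), mTORC2 (3), the TTT assembly co-chaperone (2), the TSC complex with RHEB (4), the Rag GTPases (4), Ragulator (5), folliculin and its partners (3), GATOR1 (3), GATOR2 (5), KICSTOR (2), amino acid sensors (4), upstream kinases with the inhibitor REDD1 (5) and effectors (7). Expression was measured by RNA sequencing in 12 libraries from CAL-27 and SCC-15, 2 human lines of oral squamous cell carcinoma. Each line was given as shControl (3 libraries) and as shTTK (3 libraries), a short hairpin RNA knockdown of TTK, the spindle checkpoint kinase. The series title names mTORC1 signalling as a subject of the study.

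All 4 groups carried the treatment label untreated, and all libraries came from batch 1. The control samples were named shControl in their titles and wild type in their genotype field, so the labels leave unclear whether they held a control hairpin. The sources used here do not give the number of hairpins against TTK, the time after transduction or whether numbered replicates were separate cultures. The p-values therefore set group differences only against the spread of these libraries, and part of that spread may be technical.

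mTOR is a kinase that works in a pair of complexes: mTORC1, built on the scaffold RPTOR, promotes protein synthesis and restrains autophagy, and mTORC2, built on RICTOR, phosphorylates AKT. Amino acids bring mTORC1 to the lysosome through the Rag GTPases, which are anchored by Ragulator and set by GATOR1, GATOR2, KICSTOR and folliculin, while growth factors act through AKT, the TSC complex and the GTPase RHEB. Most of this control acts on proteins, through phosphorylation, nucleotide binding and movement within the cell, and none of these was measured here. In squamous carcinoma the pathway is often switched on through the phosphoinositide 3-kinase PIK3CA.

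Total counts ranged from 16176655 to 18484112 per library, and the members held between 0.343% and 0.369% of the counts of a library. Values are CPM, a gene's share of the library's counts after TMM scaling, unless they are stated per kilobase (kb) of exon. TTK itself stood at 68.6% of the control level in the CAL-27 knockdown and at 43.1% in the SCC-15 knockdown, with no overlap between groups. Of 10 squamous epithelial markers, 10 were above 1 CPM in CAL-27 and 9 in SCC-15, where PKP1 was below. Their summed level was 2910 to 3050 CPM in the CAL-27 controls and 4940 to 5000 CPM in the CAL-27 knockdown, against 8490 to 8850 and 8150 to 8180 CPM in SCC-15. Single markers went both ways. In CAL-27, mean KRT14 rose from 3.44 to 73.2 CPM, while EPCAM fell from 277 to 228 and CDH1 from 451 to 418 CPM. In SCC-15, mean KRT14 fell from 763 to 370 CPM, while CDH1 rose from 24.1 to 40.5 and DSP from 1110 to 1270 CPM. The summed level of 6 endothelial markers was 102 to 110 CPM in the CAL-27 controls and 72.9 to 75.1 CPM in the knockdown, nearly all of it from CDH5, with KDR at 0 counts in all 12 libraries. The 8 leukocyte markers summed to between 8.33 and 19.3 CPM over all libraries, with PTPRC at 0 in CAL-27. Among them CSF1R had group means of 4.70 to 9.32 CPM, and CD14 had 9.31 and 12.7 CPM in CAL-27. The 8 fibroblast markers summed to between 20.6 and 42.3 CPM, mostly from COL1A1 (group means of 20.1 to 34.3 CPM), with COL1A2 at 0 in SCC-15. The part of these markers in the members' values was not tested, and in bulk RNA fewer cells of a kind and less RNA per cell cannot be told apart.

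Library 1 of each SCC-15 group differed more from its group than the remaining libraries did from each other. Among the SCC-15 controls the mean chi-square per gene was 5.62 and 5.96 in pairs with library 1 and 1.98 in the pair without it. Among the SCC-15 knockdown libraries it was 3.07 and 3.78 in pairs with library 1 and 1.95 in the pair without it. The median chi-square over that of counting error differed less. It was 1.92 and 2.11 against 1.76 in the SCC-15 controls, and 2.19 and 2.63 against 1.77 in the knockdown. In the CAL-27 pairs it was 1.93 to 2.14, so for a typical gene SCC-15 control library 1 was not beyond that range. The mitochondrially encoded share of counts was 2.94% to 3.86% in the SCC-15 controls and 2.35% to 2.69% in the SCC-15 knockdown, with library 1 highest in each group. For members whose SCC-15 knockdown call changed when both of these libraries were left out, both values are given.

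Control levels of the members differed widely when stated per kilobase of exon. In CAL-27 the 4 highest were DDIT4, which encodes the stress-induced mTORC1 inhibitor REDD1 (225 CPM per kb), EIF4EBP1, the translation repressor 4E-BP1 (56.0), EIF4B, a cofactor of the initiation helicase (53.4), and RRAGA, the GTPase Rag A (48.4). In SCC-15 the 4 highest were EIF4B (84.1 CPM per kb), EIF4EBP1 (78.7), DDIT4 (64.9) and LAMTOR4, a Ragulator subunit (36.2). At the low end stood DEPTOR, an inhibitory subunit of both complexes, with 0.133 CPM per kb in CAL-27 and 0.324 in SCC-15. Next above DEPTOR in CAL-27 were SESN3 (0.538 CPM per kb), which encodes a sestrin, and FNIP2 (0.629), which encodes a folliculin partner. In SCC-15 they were RRAGD (0.683), which encodes Rag D, and the GATOR1 subunit DEPDC5 (0.713). Exon lengths are those of all annotated exons merged, retained introns included, so that the level per kb of a gene such as EIF4E is understated.

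Promoter sequences were searched because several genes of this pathway are known targets of TFEB and TFE3, factors that mTORC1 keeps out of the nucleus and that bind the E-box CACGTG. RefSeq entries were matched for 45 of the 52 members by symbol, and the 250 bases before the start were read (GRCh38.p14). The letters CACGTG, which read the same on both strands, were present in 9 of 45 members (20%), in 8.85% of the promoters of tested genes and in 6.34% of all 35116 promoters. These members were RRAGC, EIF4E, FNIP1, LAMTOR4, LAMTOR1, EIF4B, TELO2, TSC2 and RRAGB. Of the 9, 4 were called lower and 1 higher with TTK knockdown in CAL-27, and 1 lower and 1 higher in SCC-15. Of all 52 members, 12 were called lower and 4 higher in CAL-27 and 12 lower and 6 higher in SCC-15, and of all tested genes 15.7% and 11.6% in CAL-27 and 14.3% and 13.4% in SCC-15. Nothing is read from so few genes. The ATF4 element TGATGNAA was present in 1 member (TSC2) and the FOXO element GTAAACA in 1 (PIK3CA), on either strand, against 1.42% and 2.08% of the promoters of tested genes. The GC box GGGCGG was present in 73.3% of the members and in 66.1% of these promoters. A match is a description of the letters and no measurement of binding. The sequences of 4 members that were called in a knockdown comparison are given 5′ to 3′ on the gene's strand, with the E-box in capitals, since they show its place and number. RRAGC (chr1:38859773-38860022, minus strand) has 1 E-box that begins 112 bases before the start, and FNIP1 (chr5:131797018-131797267, minus strand) has 2, at 175 and 94 bases. TELO2 (chr16:1493110-1493359, plus strand) has 1 at 119 bases, and EIF4E (chr4:98929134-98929383, minus strand) has 2, at 225 and 72 bases.
RRAGC: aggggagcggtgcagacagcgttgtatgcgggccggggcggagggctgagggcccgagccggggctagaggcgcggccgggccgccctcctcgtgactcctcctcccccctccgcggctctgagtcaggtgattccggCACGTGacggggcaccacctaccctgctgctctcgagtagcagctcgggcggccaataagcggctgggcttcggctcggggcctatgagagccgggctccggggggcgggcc
FNIP1: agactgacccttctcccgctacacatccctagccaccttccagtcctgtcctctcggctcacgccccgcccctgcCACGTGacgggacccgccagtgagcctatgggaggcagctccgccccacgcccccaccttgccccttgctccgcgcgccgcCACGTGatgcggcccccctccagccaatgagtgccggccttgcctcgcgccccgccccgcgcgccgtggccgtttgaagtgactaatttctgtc
TELO2: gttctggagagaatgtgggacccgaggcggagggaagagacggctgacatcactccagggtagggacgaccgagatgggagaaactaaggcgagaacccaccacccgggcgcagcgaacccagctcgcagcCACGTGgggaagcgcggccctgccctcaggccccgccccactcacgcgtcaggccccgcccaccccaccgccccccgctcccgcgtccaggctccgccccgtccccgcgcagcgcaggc
EIF4E: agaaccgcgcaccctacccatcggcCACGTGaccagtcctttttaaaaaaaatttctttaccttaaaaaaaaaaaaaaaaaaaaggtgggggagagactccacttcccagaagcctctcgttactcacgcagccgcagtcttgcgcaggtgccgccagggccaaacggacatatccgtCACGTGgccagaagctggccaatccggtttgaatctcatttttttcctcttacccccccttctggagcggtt

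With TTK knockdown in CAL-27, the mTORC1 core genes RPTOR, MTOR and AKT1S1 and the GTPase genes RHEB, RRAGC and RRAGD fell, while DDIT4, WDR59, EIF4B and ULK1 rose. Of the 52 members, 12 were called lower and 4 higher by edgeR's quasi-likelihood test at a Benjamini-Hochberg adjusted p under 0.05. Among all tested genes 15.7% were called lower, 11.6% higher and 27.3% in either direction. The members' median log2 fold change was -0.04, against -0.01 over all tested genes, and no called member changed by as much as 1.5-fold, which 5.61% of all tested genes did (2.51% by at least 2-fold).

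In SCC-15 the sensing genes SESN3, LAMTOR3 and FNIP2 and the effectors EIF4E, RPS6KB1 and RPS6KB2 fell, as did RPTOR and MAPKAP1, and MTOR and EIF4EBP1 rose. The lines had 5 called members in common. There 12 were called lower and 6 higher, against 14.3% lower, 13.4% higher and 27.7% in either direction among all tested genes. The count of 6 became 3 without control library 2, without shTTK library 1 or without both libraries numbered 1. Without shTTK library 1, TELO2, TTI1, KPTN and DDIT4 lost the call and RICTOR, not among the 6, gained it. Without both libraries numbered 1, TELO2, TTI1, KPTN and EIF4EBP1 lost it and RICTOR again gained it. The members' median log2 fold change was -0.06, against 0.00 over all tested genes. A change of at least 1.5-fold was called for 4 members, FNIP2, LAMTOR3, SESN3 and EIF4E, all lower, against 5.28% of all tested genes in either direction, and 0 members by at least 2-fold, against 2.35%. Called lower in both lines were RPTOR and MAPKAP1 (4.01% of all tested genes were), and called higher in both was DDIT4 (2.87%). MTOR and TELO2 were called in opposite directions (4.81%), and 23 members were called in neither line (56.7%) and 29 in at least 1 (43.3%).

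**Figure D1:**
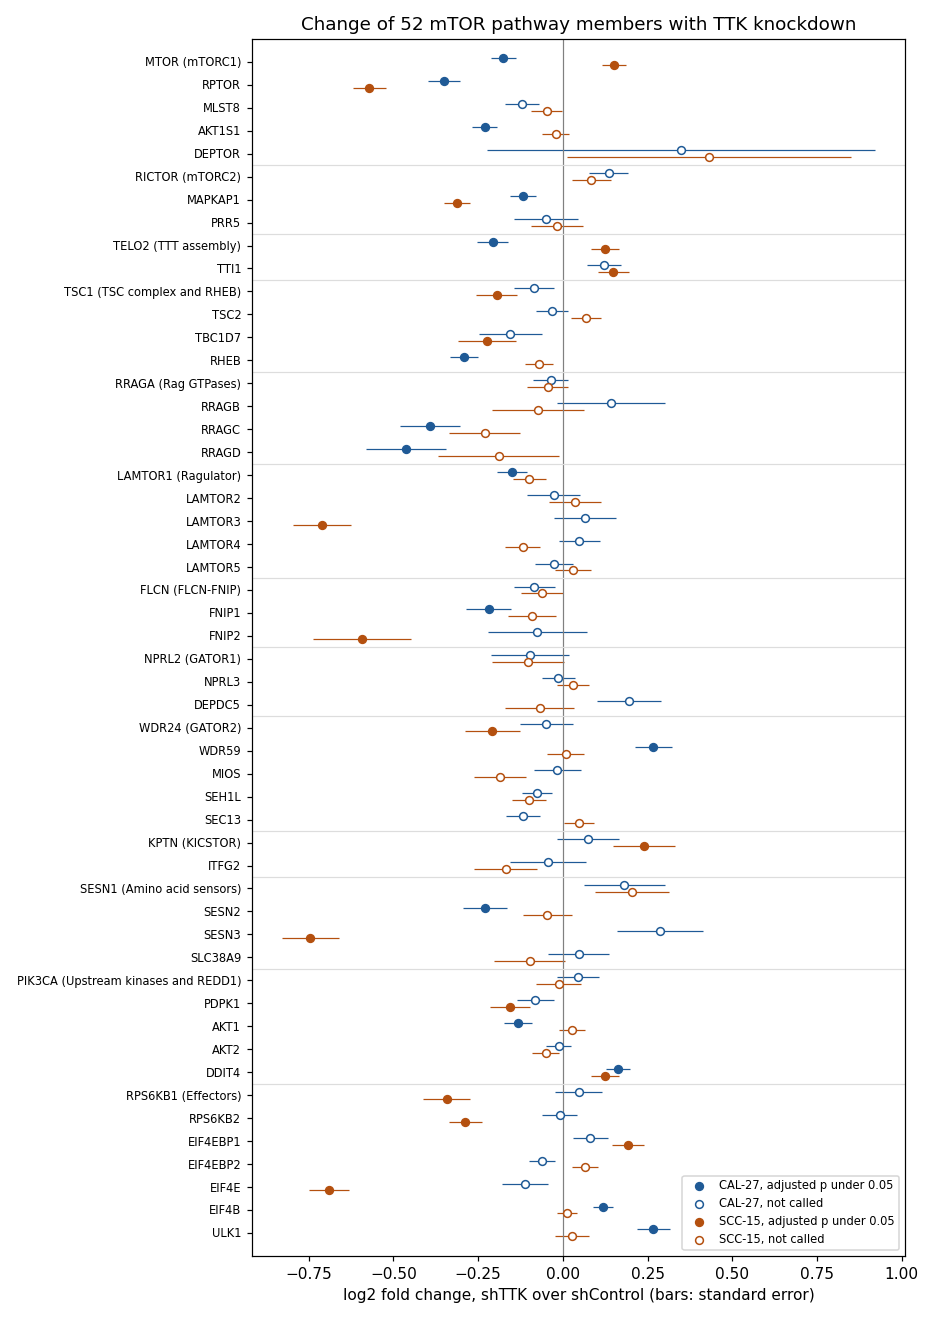
Log2 fold change of each of the 52 members, shTTK over shControl (horizontal axis), with its standard error, in CAL-27 (blue) and SCC-15 (orange). Filled points have an edgeR adjusted p under 0.05 (16 in CAL-27, 18 in SCC-15), open points do not, and grey lines part the functional groups. RPTOR lies left of 0 in both lines, MTOR on opposite sides, and EIF4E, LAMTOR3 and SESN3 lie below -0.6 in SCC-15.

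RPTOR, which recruits the substrates of mTORC1, was the member with the smallest adjusted p in each line (chromosome 17, 80544819 to 80966371, plus strand, GRCh38). It stood at 85.7, 87.8 and 83.3 CPM in the CAL-27 controls and at 66.5, 65.1 and 69.8 CPM in the knockdown. The SCC-15 controls read 84.2, 83.2 and 84.6 CPM and the knockdown 59.4, 56.0 and 54.2 CPM. In both lines each knockdown library was below each control library, and the controls of the 2 lines did not differ beyond their spread (log2 fold change -0.03 ± 0.046, SE, edgeR adjusted p = 0.596). The log2 fold change was -0.35 ± 0.048 in CAL-27 (edgeR adjusted p = 5.64e-09) and -0.57 ± 0.048 in SCC-15 (edgeR adjusted p = 1.48e-16), which left 78.4% and 67.3% of the control level. The 20 nearest tested protein-coding genes around RPTOR had a median log2 fold change of 0.16 in CAL-27 and 0.06 in SCC-15.

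MTOR, the catalytic subunit, went opposite ways (chromosome 1, 11106535 to 11262507, minus strand). CAL-27 controls were at 178, 166 and 178 CPM and knockdown libraries at 151, 155 and 156 CPM. SCC-15 controls were at 203, 208 and 208 CPM and knockdown libraries at 238, 225 and 224 CPM. The groups did not overlap in either line, being lower in the CAL-27 knockdown and higher in the SCC-15 knockdown. The log2 fold changes were -0.18 ± 0.036 (SE, edgeR adjusted p = 7.38e-05) and 0.15 ± 0.035 (adjusted p = 0.000392). Without both SCC-15 libraries numbered 1 the latter was 0.11 (adjusted p = 0.0351).

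Among the other mTORC1 subunits, AKT1S1, which encodes the inhibitory subunit PRAS40, fell in CAL-27. Its controls were at 181, 173 and 183 CPM and its knockdown libraries at 156, 150 and 152 CPM, a log2 fold change of -0.23 ± 0.038 (SE, edgeR adjusted p = 6.54e-07). In SCC-15 the groups overlapped, at 99.1 to 106 CPM in the controls and 98.5 to 104 CPM in the knockdown. MLST8, a subunit of both complexes, was not called in either line (log2 fold change -0.12 and -0.05). DEPTOR had between 2 and 23 counts in a library, and its changes could not be resolved at this depth (SE 0.57 and 0.42 on the log2 scale).

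In mTORC2, MAPKAP1, which encodes the substrate-binding subunit SIN1, was lower in both lines (chromosome 9, 125437393 to 125707234, minus strand). It was at 143, 147 and 147 CPM in the CAL-27 controls and at 134 CPM in each knockdown library. In SCC-15 it was at 144, 147 and 142 CPM in the controls and at 115, 115 and 118 CPM in the knockdown. No groups overlapped, and the log2 fold changes were -0.12 ± 0.037 (SE, edgeR adjusted p = 0.0109) and -0.31 ± 0.038 (edgeR adjusted p = 1.24e-10). The CAL-27 call was lost without control library 2 (-0.09, adjusted p = 0.107), shTTK library 1 (-0.10, 0.0890) or shTTK library 3 (-0.10, 0.0752). It was also lost with no count filter (-0.10, edgeR adjusted p = 0.106). RICTOR, the scaffold of mTORC2, was at 54.4, 50.9 and 52.9 CPM in the CAL-27 controls and at 56.5, 58.7 and 58.6 CPM in the knockdown, higher in each knockdown library but not called (0.13, adjusted p = 0.0683). It passed the threshold in 8 of 21 alternative settings. In SCC-15 the groups of RICTOR overlapped (0.08, adjusted p = 0.297), but it was called higher without shTTK library 1 (0.17, adjusted p = 0.0275) and without both libraries numbered 1 (0.17, 0.044). PRR5, a RICTOR-binding subunit, was called in neither line (-0.05 and -0.02).

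The ratio of RPTOR to RICTOR, both in CPM per kb, was examined after their values were seen. It was 2.14 ± 0.12 (SD, n = 3) in the CAL-27 controls and 1.53 ± 0.059 in the knockdown, and 2.14 ± 0.025 in the SCC-15 controls and 1.37 ± 0.20 in the knockdown. The groups did not overlap in either line, and the two-sided exact permutation p was 0.1 in each, the smallest that 3 against 3 libraries allow. In CAL-27 the lack of overlap was settled beforehand, since RPTOR was lower and RICTOR higher in each knockdown library. No conclusion is drawn from this test of values already seen.

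TELO2 and TTI1 encode subunits of the co-chaperone that assembles mTOR and related kinases. TELO2 was at 81.3, 81.5 and 81.5 CPM in the CAL-27 controls and at 69.8, 67.2 and 74.6 CPM in the knockdown, a log2 fold change of -0.21 ± 0.046 (SE, edgeR adjusted p = 0.00022). In SCC-15 it was at 124, 117 and 123 CPM in the controls and at 138, 132 and 126 CPM in the knockdown, a log2 fold change of 0.12 ± 0.041 (edgeR adjusted p = 0.0176). The knockdown libraries thus lay below the controls in CAL-27 and above them in SCC-15, as for MTOR. TTI1 was called higher in SCC-15 (0.15, adjusted p = 0.00882) and not called in CAL-27 (0.12, adjusted p = 0.0645), where it passed the threshold in 11 alternative settings. The SCC-15 call of TELO2 was lost without control library 2 (0.10, adjusted p = 0.104) and without shTTK library 1 (0.09, 0.115), and that of TTI1 without shTTK library 1 (0.13, 0.05). Without both SCC-15 libraries numbered 1, TELO2 was at 0.11 (0.118) and TTI1 at 0.12 (0.116).

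RHEB, the GTPase that activates mTORC1 directly, fell in CAL-27 (chromosome 7, 151466012 to 151520120, minus strand). Its controls were at 114, 109 and 113 CPM and its knockdown libraries at 94.3, 85.6 and 94.1 CPM, a log2 fold change of -0.29 ± 0.042 (SE, edgeR adjusted p = 3.92e-08). In SCC-15 it was at 105, 100 and 104 CPM and at 98.9, 98.8 and 96.9 CPM, lower in each knockdown library but not called (-0.07, adjusted p = 0.226). Its processed pseudogene RHEBP2 held 13.6% as many counts as RHEB, and the sources used here do not say how reads that match both were counted. RHEBP2 had a log2 fold change of -0.20 in CAL-27 (adjusted p = 0.16) and -0.32 in SCC-15 (adjusted p = 0.0134), so that the value of RHEB is uncertain.

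The TSC complex holds RHEB inactive. TSC1, its stabilising subunit, and TBC1D7, a further subunit, were called lower in SCC-15 (log2 fold change -0.20 and -0.22, edgeR adjusted p = 0.01 and 0.0426), and TSC2, the catalytic subunit, was not called (0.07). None of them was called in CAL-27 (-0.09, -0.15 and -0.03). The call of TSC1 was lost in 1 of 21 alternative settings, without control library 2 (-0.16, adjusted p = 0.0837). That of TBC1D7 was lost in 10 of 21, among them DESeq2 (adjusted p = 0.0933), leaving out control library 2 (-0.15, 0.313) or any shTTK library (-0.24 to -0.18), and leaving out both libraries numbered 1 (-0.27, 0.0563).

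Of the Rag GTPases, RRAGC and RRAGD fell in CAL-27. These encode Rag C and Rag D, either of which pairs with Rag A or Rag B. RRAGC was at 25.9, 24.7 and 24.5 CPM in the controls and at 22.0, 17.6 and 17.6 CPM in the knockdown, a log2 fold change of -0.39 ± 0.090 (SE, edgeR adjusted p = 0.00034). RRAGD was at 16.4, 17.2 and 16.7 CPM and at 10.2, 14.5 and 11.7 CPM, a log2 fold change of -0.46 ± 0.12 (edgeR adjusted p = 0.00133). In both genes each knockdown library was below each control library, and the knockdown libraries were spread more widely. In SCC-15, RRAGC was at 12.8, 12.6 and 13.0 CPM and at 11.7, 11.5 and 9.61 CPM, and RRAGD at 3.54, 3.33 and 3.52 CPM and at 3.32, 2.48 and 3.30 CPM. There too the knockdown libraries were all lower, but neither gene was called (-0.23, adjusted p = 0.092, and -0.19, adjusted p = 0.486), and the difference between the lines was not called for either (adjusted p = 0.443 and 0.401). The ratio of RRAGC to RRAGD in CPM per kb was 1.47 ± 0.072 and 1.60 ± 0.48 (SD, n = 3) in the CAL-27 controls and knockdown, and 3.63 ± 0.080 and 3.61 ± 0.85 in SCC-15, with overlapping libraries in both lines (two-sided exact permutation p = 0.8 and 1). RRAGA and RRAGB were called in neither line (log2 fold changes between -0.07 and 0.14).

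Ragulator is the scaffold that holds the Rag GTPases on the lysosome. Of its 5 subunits, 1 was called in each line, against 27.3% of all tested genes in CAL-27 and 27.7% in SCC-15. LAMTOR3, which encodes the MP1 subunit, fell in SCC-15 (chromosome 4, 99878336 to 99894490, minus strand). It was at 30.0, 26.4 and 29.7 CPM in the controls and at 15.1, 18.4 and 19.0 CPM in the knockdown. Every knockdown library was far below every control library, and the log2 fold change was -0.71 ± 0.086 (SE, edgeR adjusted p = 1.41e-10), or -0.58 without both libraries numbered 1 (3.93e-06). In CAL-27 it was at 16, 18 and 18 CPM and at 19.1, 18.3 and 16.8 CPM, with overlapping groups. LAMTOR1, which encodes the membrane anchor p18, fell in CAL-27 by 0.15 on the log2 scale (edgeR adjusted p = 0.00571), a call that was lost without shTTK library 1 (-0.12, adjusted p = 0.0811). LAMTOR2, LAMTOR4 and LAMTOR5 were called in neither line (log2 fold changes between -0.12 and 0.05). The share of LAMTOR3 in the summed CPM per kb of the 5 LAMTOR genes, chosen after its value was seen, was 6.28% ± 0.49 in the SCC-15 controls and 4.06% ± 0.47 in the knockdown (SD, n = 3), without overlap (two-sided exact permutation p = 0.1, the smallest possible here). Because the share was chosen from these values, no conclusion is drawn from that p.

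Folliculin (FLCN) and its partners FNIP1 and FNIP2 form the GTPase-activating complex for Rag C and Rag D. FNIP2 fell in SCC-15, where it was at 8.40, 8.84 and 7.98 CPM in the controls and at 5.83, 5.41 and 5.48 CPM in the knockdown, a log2 fold change of -0.59 ± 0.14 (SE, edgeR adjusted p = 0.000775). In CAL-27 its groups overlapped, at 5.70 to 7.84 CPM and 5.50 to 7.08 CPM. FNIP1 fell in CAL-27 instead (-0.22, edgeR adjusted p = 0.00813), a call that was lost without control library 3 (-0.19, adjusted p = 0.0589). The difference between the lines was not called for FNIP1 (adjusted p = 0.373) or FNIP2 (0.0539). That of FNIP2 passed the threshold with the filter of 1 CPM in 3 libraries (edgeR adjusted p = 0.0475). It also passed without CAL-27 control library 1 (0.0317) or CAL-27 shTTK library 2 (0.0273). FLCN was called in neither line (-0.08 and -0.06).

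GATOR1 shuts off Rag A and Rag B when amino acids are scarce, GATOR2 opposes it, and KICSTOR places GATOR1 on the lysosome. The 3 GATOR1 genes NPRL2, NPRL3 and DEPDC5 were called in neither line, with log2 fold changes between -0.10 and 0.19. Of the 5 GATOR2 genes, WDR59 rose in CAL-27, from 49.9, 47.8 and 53.6 CPM to 61.2, 61.7 and 58.9 CPM, a log2 fold change of 0.27 ± 0.056 (SE, edgeR adjusted p = 8.82e-05). All 3 knockdown libraries were above all 3 controls. In SCC-15, WDR59 was at 54.3, 53.6 and 55.5 CPM and at 57.3, 50.7 and 56.3 CPM, with overlap. WDR24 had a borderline call in SCC-15 (-0.21, adjusted p = 0.047), which was lost in 15 of 21 alternative settings. Among these were DESeq2 (adjusted p = 0.0926), leaving out any one of the 6 SCC-15 libraries other than control library 3 (-0.23 to -0.12), and leaving out both libraries numbered 1 (-0.26, adjusted p = 0.0529). The KICSTOR subunit KPTN was called higher in SCC-15 (0.24, adjusted p = 0.0393). This call was lost without control library 1 (0.23, adjusted p = 0.104) or 2 (0.22, 0.128), shTTK library 1 (0.17, 0.224) or 2 (0.26, 0.0627), and without both libraries numbered 1 (0.16, 0.35). With DESeq2 it was lost as well (0.25, adjusted p = 0.0523). ITFG2, another KICSTOR subunit, was not called (-0.17). MIOS, SEH1L and SEC13 were called in neither line.

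The sestrins bind GATOR2 and relieve its block on GATOR1, and SESN2 is a sensor of leucine. SESN3 had the largest change of any member in SCC-15 (chromosome 11, 95165513 to 95232541, minus strand). It fell from 35.3, 30.6 and 32.6 CPM to 19.9, 19.8 and 19.1 CPM, a log2 fold change of -0.75 ± 0.084 (SE, edgeR adjusted p = 1.76e-11). In CAL-27 it was low in all libraries, at 5.49, 5.43 and 6.13 CPM in the controls and 7.20, 7.27 and 6.28 CPM in the knockdown, higher in each knockdown library but not called (0.29 ± 0.13, adjusted p = 0.0854). SESN2 fell in CAL-27 (-0.23, adjusted p = 0.00367), from 48.1, 48.7 and 49.5 CPM to 45.8, 37.3 and 41.8 CPM, and this call was lost without shTTK library 2 (-0.16, adjusted p = 0.0979). SESN1 was called in neither line (0.18 and 0.20), nor was SLC38A9, a lysosomal arginine sensor (0.05 and -0.10). Of the summed CPM per kb of the 3 sestrin genes, chosen after the values were seen, SESN3 held 23.2% ± 1.9 in the SCC-15 controls and 15.1% ± 0.85 in the knockdown (SD, n = 3). In CAL-27 it held 3.27% ± 0.15 and 4.47% ± 0.55. Libraries did not overlap in either line (two-sided exact permutation p = 0.1, the smallest possible here). No conclusion is drawn from that p, since the share was chosen from these values.

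**Figure D2:**
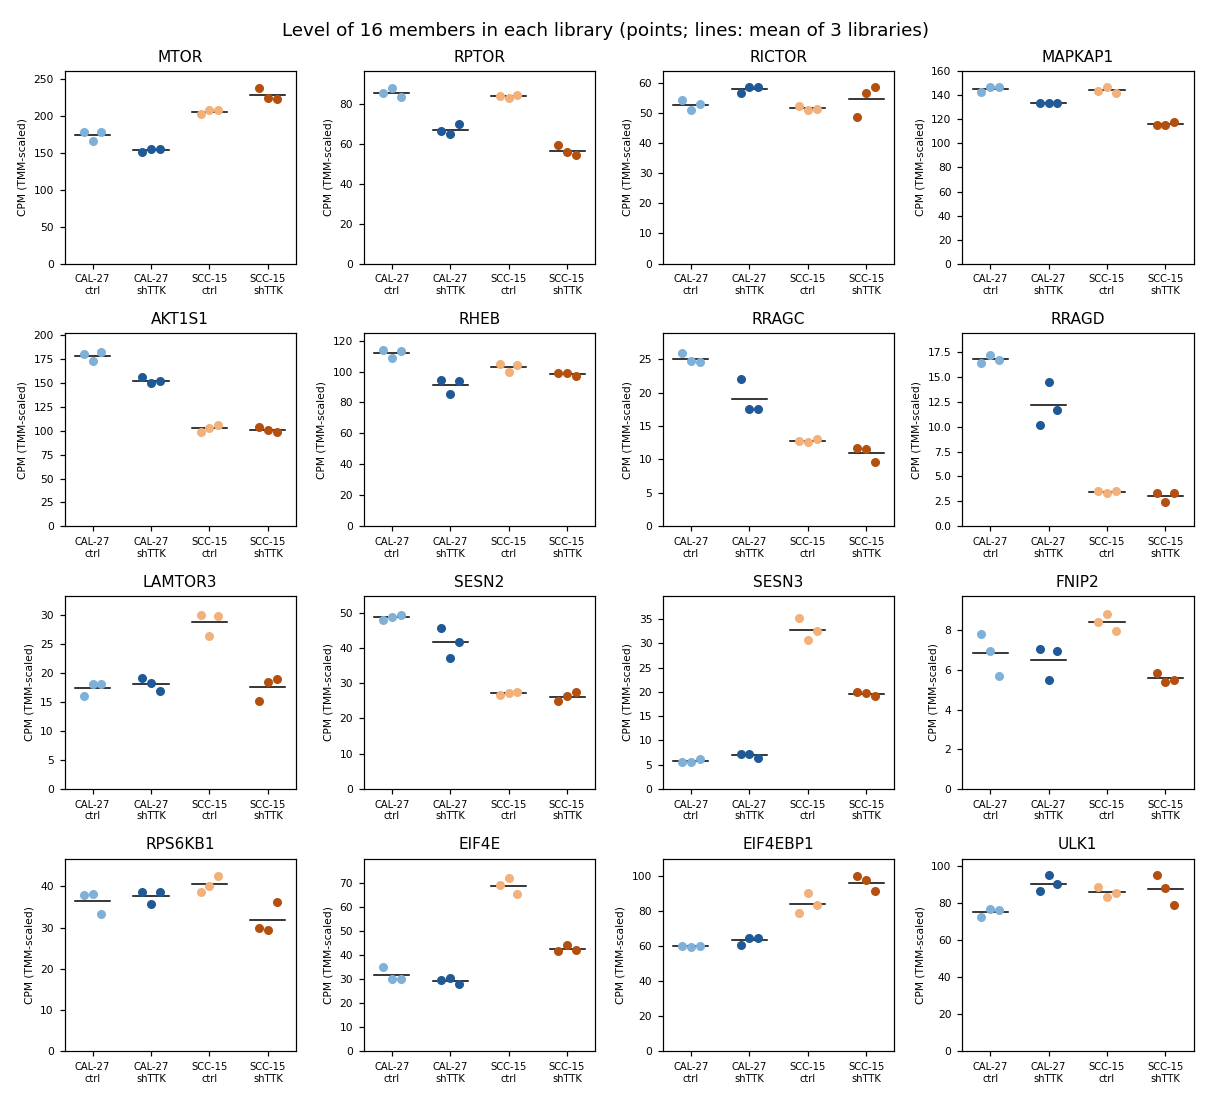
Level of 16 members in CPM after TMM scaling (vertical axes from 0) in each of the 12 libraries, as points, with the mean of 3 libraries as a line, for the CAL-27 and SCC-15 controls (light) and shTTK libraries (dark). SESN3 fell from at least 30.6 to at most 19.9 CPM in SCC-15, and RRAGD was at 10.2 CPM or more in the CAL-27 libraries and at 3.54 CPM or less in the SCC-15 libraries.

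Upstream of the complexes, DDIT4 was called higher in both lines. Its product REDD1 is induced by stress and restrains mTORC1 through the TSC complex. It was at 446, 478 and 465 CPM in the CAL-27 controls and at 501, 533 and 520 CPM in the knockdown, without overlap, a log2 fold change of 0.16 ± 0.036 (SE, edgeR adjusted p = 0.000479). In SCC-15 it was at 141, 125 and 135 CPM and at 155, 140 and 142 CPM, with overlap between the lowest knockdown and the highest control library (0.12 ± 0.041, edgeR adjusted p = 0.0186). With limma-voom the adjusted p was 0.0546, and the call was also lost without control library 2 (0.08, adjusted p = 0.149) or shTTK library 1 (0.08, adjusted p = 0.139). AKT1, the kinase that inactivates TSC2, was called lower in CAL-27 (-0.13, adjusted p = 0.00949). That call was lost without control library 2 (-0.10, adjusted p = 0.103) or shTTK library 3 (-0.10, adjusted p = 0.111). With no count filter it was lost too (-0.11, edgeR adjusted p = 0.0661). PDPK1, which activates AKT, was called lower in SCC-15 (-0.16, adjusted p = 0.0404) but the call was lost in 13 of 21 alternative settings. Among these were DESeq2 (adjusted p = 0.0858), limma-voom (0.0605), leaving out control library 3 (-0.09, 0.392) or any shTTK library (-0.17 to -0.14), and leaving out both libraries numbered 1 (-0.18, 0.054). AKT2 and PIK3CA, the catalytic subunit of the phosphoinositide 3-kinase, were called in neither line (log2 fold changes -0.01 and -0.05 for AKT2, and 0.04 and -0.01 for PIK3CA).

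Among the 7 effectors, 3 were called lower and 1 higher in SCC-15, against 14.3% and 13.4% of all tested genes. In CAL-27, 0 were called lower and 2 higher, against 15.7% and 11.6%. EIF4E encodes the protein that binds the mRNA cap (chromosome 4, 98871684 to 98930637, minus strand). It was at 69.0, 71.8 and 65.4 CPM in the SCC-15 controls and at 41.7, 44.0 and 42.1 CPM in the knockdown, a log2 fold change of -0.69 ± 0.059 (SE, edgeR adjusted p = 2.99e-16). The knockdown libraries held 62.0% of the control level, with a wide gap between the groups. In CAL-27 it was at 35.2, 30.0 and 30.1 CPM and at 29.8, 30.3 and 28.1 CPM, with overlap (-0.11, adjusted p = 0.244). The processed pseudogene EIF4EP2 held 18.5% as many counts as EIF4E and was also called lower in SCC-15 (-0.65, edgeR adjusted p = 6.89e-05), and the sources used here do not say how reads that match both were counted.

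EIF4EBP1 encodes 4E-BP1, the repressor that holds EIF4E until mTORC1 phosphorylates it. In SCC-15 it was at 79.1, 90.4 and 83.7 CPM in the controls and at 100, 98.0 and 91.5 CPM in the knockdown, each knockdown library above each control, a log2 fold change of 0.19 ± 0.047 (SE, edgeR adjusted p = 0.000797). Without both libraries numbered 1 it was 0.12 and not called (adjusted p = 0.108). In CAL-27 the levels were 60.3, 59.7 and 60.4 CPM and 61.0, 65.1 and 64.7 CPM, higher in each knockdown library but not called (0.08, adjusted p = 0.26). The ratio of EIF4EBP1 to EIF4E in CPM per kb, chosen after the values were seen, was 16.1 ± 0.96 in the SCC-15 controls and 29.7 ± 1.5 in the knockdown (SD, n = 3), 1.84 times as high. In CAL-27 it was 25.0 ± 2.1 and 28.4 ± 1.7, or 1.14 times as high. Libraries did not overlap in either line (two-sided exact permutation p = 0.1, the smallest possible here). For SCC-15 this was settled beforehand, since EIF4EBP1 was higher and EIF4E lower in each knockdown library. No conclusion is drawn from the test. EIF4EBP2, another 4E-BP gene, was called in neither line (-0.06 and 0.06).

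**Figure D3:**
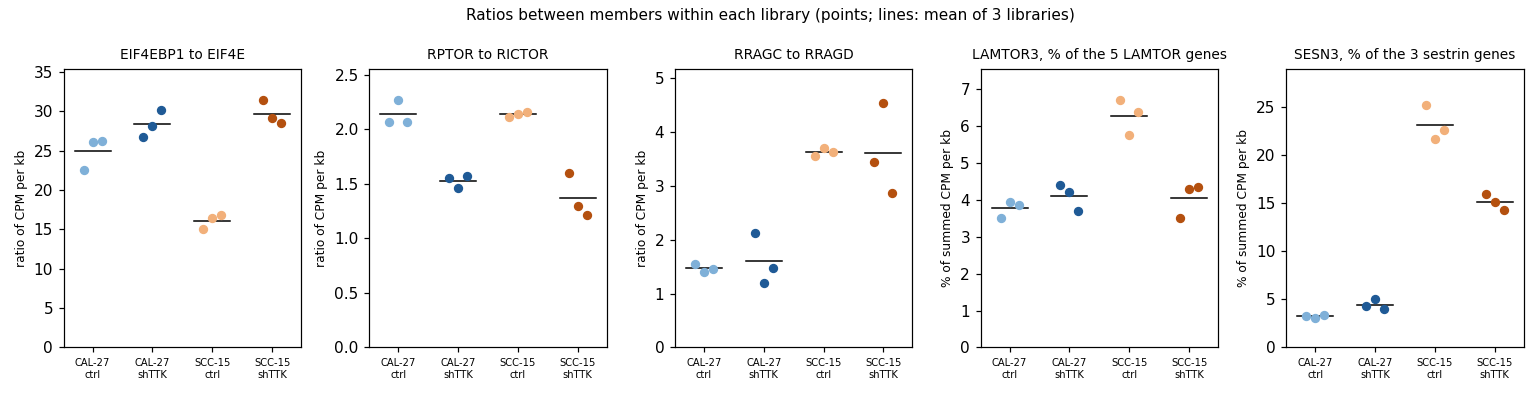
Ratios between members within each of the 12 libraries (points) with the mean of 3 libraries (lines): EIF4EBP1 to EIF4E, RPTOR to RICTOR and RRAGC to RRAGD as ratios of CPM per kb, and LAMTOR3 and SESN3 as a percentage of the summed CPM per kb of the 5 LAMTOR and the 3 sestrin genes. The EIF4EBP1 to EIF4E ratio of the SCC-15 knockdown (28.5 to 31.4) lies well above its controls (15 to 16.8), and the RRAGC to RRAGD ratios overlap between knockdown and control in both lines.

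The S6 kinase genes RPS6KB1 and RPS6KB2, whose products phosphorylate ribosomal protein S6, both fell in SCC-15. RPS6KB1 was at 38.7, 40.1 and 42.6 CPM in the controls and at 30.0, 29.5 and 36.1 CPM in the knockdown, a log2 fold change of -0.34 ± 0.069 (SE, edgeR adjusted p = 5.19e-05). RPS6KB2 was at 82.1, 86.8 and 82.7 CPM and at 72.4, 67.2 and 66.6 CPM, a log2 fold change of -0.29 ± 0.048 (edgeR adjusted p = 1.22e-06). Both were lower in every knockdown library. In CAL-27 their groups overlapped, with RPS6KB1 at 37.9, 38.2 and 33.3 CPM and 38.7, 35.7 and 38.6 CPM, and RPS6KB2 at 61.0, 63.4 and 61.7 CPM and 61.8, 59.7 and 63.4 CPM. EIF4B, a cofactor of the helicase eIF4A and a substrate of these kinases, rose in CAL-27 by 0.12 on the log2 scale (edgeR adjusted p = 0.0016) and was not called in SCC-15 (0.01). ULK1, which starts autophagy and is inhibited by mTORC1, rose in CAL-27 from 72.6, 76.5 and 76.2 CPM to 86.3, 95.0 and 89.9 CPM, a log2 fold change of 0.27 ± 0.050 (SE, edgeR adjusted p = 1.47e-05). In SCC-15 it was at 88.5, 83.0 and 85.3 CPM and at 95.0, 88.0 and 78.7 CPM, with overlap.

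Lower levels in SCC-15 were shared by the genes that lie next to several of these members. Around EIF4E, the 20 nearest tested protein-coding genes of chromosome 4 had a median log2 fold change of -0.66, and 14 of 20 were called lower and 0 higher. Around LAMTOR3, which lies close by and has partly the same neighbours, the median was -0.55, with 17 of 20 lower and 0 higher. FNIP2, on the same chromosome, had neighbours with a median of -0.24 (9 of 20 lower). Over the 475 tested protein-coding genes of chromosome 4 the median was -0.25 and 48.8% were called lower, against 30.2% on chromosome 17 and 30.0% on chromosome 12, the next in order. In CAL-27 the chromosome 4 median was -0.03 and 16.4% were called lower, with neighbour medians of -0.01 for EIF4E and -0.08 for LAMTOR3. The change of EIF4E (-0.69) was thus near the median of its neighbours. Those of LAMTOR3 (-0.71) and FNIP2 (-0.59) were further from 0 than the medians of their neighbours. The part of this region in the members' changes was not tested. For SESN3 the neighbour median in SCC-15 was -0.17 against -0.75 for the gene itself, for RPS6KB1 it was -0.12 against -0.34, and for RPS6KB2 -0.05 against -0.29. Nearer their neighbours were MTOR in SCC-15 (0.15, neighbour median 0.11) and, in CAL-27, FNIP1 (-0.22, -0.19) and EIF4B (0.12, 0.11). RHEB and RRAGC in CAL-27 (-0.29 and -0.39) had neighbour medians of -0.13 and -0.17. LAMTOR1 and AKT1 in CAL-27 (-0.15 and -0.13), like RPTOR there, had neighbour medians of the other sign (0.14 and 0.12). The part of neighbouring genes in these changes was not tested.

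**Figure D4:**
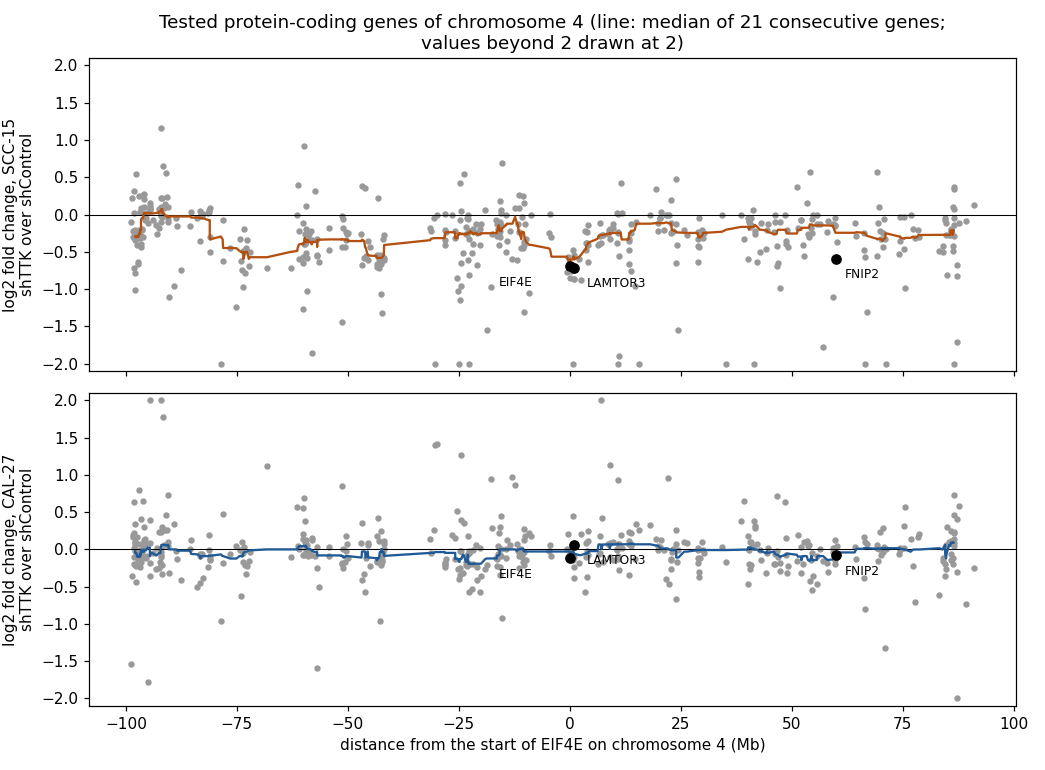
Log2 fold change with TTK knockdown (vertical axis) of the tested protein-coding genes of chromosome 4 by their distance from the start of EIF4E in Mb (horizontal axis), in SCC-15 (top) and CAL-27 (bottom); grey points are genes, black points members, lines the median of 21 consecutive genes, and values beyond 2 are drawn at 2. Around EIF4E and LAMTOR3 the SCC-15 line lies near -0.6, while the CAL-27 line stays near 0.

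The difference between the lines was tested as the log2 fold change in SCC-15 less that in CAL-27. It was called for 14 members, 5 with a positive and 9 with a negative difference, against 25.4% of all tested genes (13.3% positive and 12.1% negative). A called difference of at least 1.5-fold was found for 2 members (7.45% of all tested genes) and of at least 2-fold for 1 (3.85%). The largest was that of SESN3 (-1.03 ± 0.15, SE, edgeR adjusted p = 7.59e-08), which fell in SCC-15 and had a positive, uncalled value in CAL-27. LAMTOR3 (-0.78 ± 0.13, adjusted p = 6.74e-07) and EIF4E (-0.58 ± 0.090, adjusted p = 3.12e-07) followed, both lower in SCC-15 and with overlapping groups in CAL-27. The neighbours of EIF4E had a median difference of -0.60, with 11 of 20 called negative and 0 positive. Around LAMTOR3 the median was -0.50 (13 of 20 negative, 1 positive), and around SESN3 it was -0.16. The part of neighbouring genes in these differences was not tested. MTOR and TELO2 each had a difference of 0.33 (adjusted p = 2.19e-07 and 1.43e-05), and RPS6KB2 one of -0.28 (0.00123). RPTOR, lower in both lines, fell more in SCC-15, with a difference of -0.22 ± 0.068 (adjusted p = 0.0101), and MAPKAP1 likewise (-0.19 ± 0.053, adjusted p = 0.00297). The TTK level also fell further in SCC-15 (difference of -0.67 ± 0.093, log2 scale), and its part in these differences was not tested. For DDIT4, called higher in both lines, the difference was -0.04 ± 0.055 (adjusted p = 0.68).

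Before any knockdown, most members already differed between the lines. Of the 52, 25 were called higher and 19 lower in the SCC-15 than in the CAL-27 controls, against 37.8% and 38.2% of all tested genes and 76.0% in either direction. A called difference of at least 1.5-fold was found for 22 members, against 48.8% of all tested genes, and of at least 2-fold for 8, against 32.0%. Because these control libraries also enter the knockdown comparisons, the values are given side by side only. By group, 6 of 7 effectors were higher in SCC-15 and 0 lower, whereas 3 of 4 Rag GTPases were lower, and RRAGB was higher. Of these effector calls, that of RPS6KB1 (0.15) was lost in several alternatives. Among these were DESeq2 (adjusted p = 0.118), limma-voom (0.0572) and leaving out SCC-15 control library 3 (0.11, edgeR adjusted p = 0.189). SESN3 stood 5.78-fold higher in SCC-15 (log2 fold change 2.53 ± 0.10, SE, edgeR adjusted p = 3.4e-36), SESN1 was also higher (0.46) and SESN2 lower (-0.85).

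RRAGD was 4.83-fold lower in the SCC-15 controls (log2 fold change -2.27 ± 0.14, SE, edgeR adjusted p = 4.72e-25) and DDIT4 3.46-fold lower (-1.79 ± 0.039, edgeR adjusted p = 1.68e-36). EIF4E was 2.16-fold higher (1.11 ± 0.062, adjusted p = 1.01e-27). PRR5, at 13.3, 16.1 and 15.7 CPM in the CAL-27 controls and 30.7, 32.5 and 32.8 CPM in the SCC-15 controls, was 2.13-fold higher (1.09 ± 0.084, adjusted p = 5.41e-20). In all of these the control libraries of the lines did not overlap. DEPTOR was at 0.686, 0.110 and 0.248 CPM in CAL-27 and at 0.629, 0.631 and 1.29 CPM in SCC-15, with overlap. Its call (1.27, adjusted p = 0.0208) was lost without CAL-27 control library 2 (0.82, adjusted p = 0.162) or 3 (1.09, 0.0766), or SCC-15 control library 3 (0.85, 0.196). MTOR was 1.18-fold higher in SCC-15, and RPTOR, RICTOR and MAPKAP1 were not called (log2 fold changes -0.03, -0.03 and -0.01).

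Several of these line differences were shared with neighbouring genes. Around RRAGA on chromosome 9, 16 of 20 neighbours were lower in SCC-15 (median log2 fold change -0.75, the gene itself -1.08). Around RRAGB on the X chromosome 18 of 20 were higher (median 0.92, the gene 0.90), as were 16 of 20 around ITFG2 (0.92, the gene 1.07). Around MIOS 17 of 20 were lower (-0.65, the gene -0.55), around AKT2 16 of 20 (-0.72, the gene -0.76), and around SEH1L 14 of 20 (-0.82, the gene -0.83). Most neighbours were also higher around the effectors EIF4E (14 of 20, median 0.79, the gene 1.11) and ULK1 (16 of 20, 0.71, the gene 0.19). The same held around EIF4EBP1 (15 of 20, 0.52, the gene 0.49) and EIF4B (13 of 20, 0.43, the gene 0.66). DDIT4 and SESN3 went apart from their neighbours, whose medians were 0.34 and 0.15, and RPS6KB2 was higher in SCC-15 (0.43) where 17 of 20 neighbours were lower (-0.76). The part of chromosome regions in the members' line differences was not tested.

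**Figure D5:**
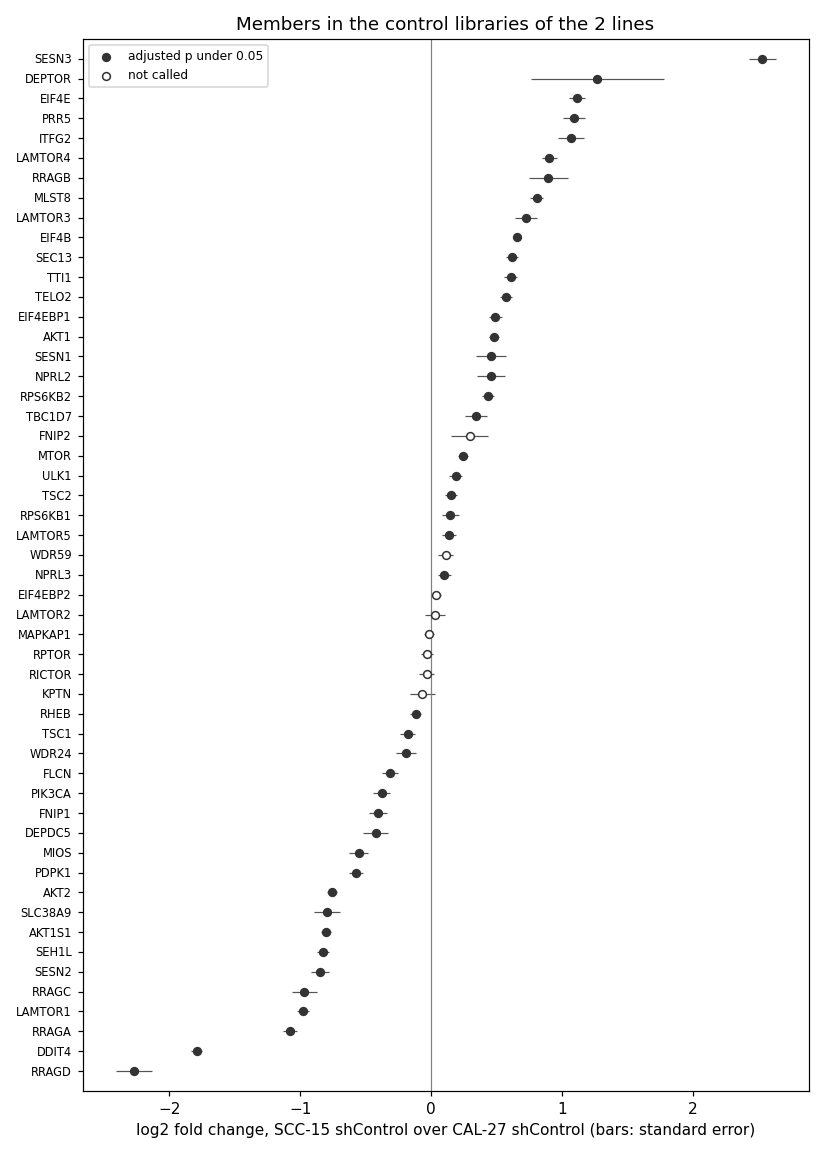
Log2 fold change of the 52 members between the control libraries, SCC-15 over CAL-27 (horizontal axis), with its standard error, in order of size. Filled points have an edgeR adjusted p under 0.05 (44 members). SESN3 (2.53) and RRAGD (-2.27) mark the ends, and RPTOR, RICTOR and MAPKAP1 lie near 0.

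Of 55 other genes of the pathway, listed by textbook role, 52 were tested. In CAL-27 16 of these were called higher and 10 lower, and in SCC-15 12 higher and 9 lower, with median log2 fold changes of 0.05 and 0.03. Over all tested genes 11.6% were called higher and 15.7% lower in CAL-27, and 13.4% and 14.3% in SCC-15. Among the amino acid carriers that supply the sensors, SLC7A5 and SLC3A2, the subunits of the leucine carrier LAT1, were higher in CAL-27 (0.59 and 0.43, edgeR adjusted p = 9.56e-34 and 2.02e-22) and lower in SCC-15 (-0.13 and -0.16, adjusted p = 1.13e-05 and 3.24e-06). The glutamine carrier SLC1A5 rose in both lines (0.29 and 0.31, adjusted p = 5.19e-12 and 1.4e-12). EIF4G1, the scaffold that EIF4E joins in the cap-binding complex, fell in CAL-27 (-0.32, from 1400 to 1120 CPM, adjusted p = 1.32e-16) and in SCC-15 (-0.33, from 1360 to 1080 CPM, adjusted p = 1.14e-16), with a difference of -0.00 ± 0.039 between the lines. SGK1, a kinase activated by mTORC2, fell in CAL-27 (-0.26) and rose in SCC-15 (0.47), with a difference of 0.73 ± 0.056 (adjusted p = 1.89e-13). TFE3, one of the factors that bind the E-box, rose in SCC-15 (0.25, adjusted p = 1.59e-06). C12orf66, which encodes the KICSTOR subunit KICS2, fell in SCC-15 from 10.6, 11.8 and 10.7 CPM to 5.42, 5.82 and 5.81 CPM (-0.96 ± 0.13, adjusted p = 2.16e-09), whereas its neighbours had a median of -0.14 and its CAL-27 value was 0.10 (adjusted p = 0.591).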

How the data were processed

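RNA was poly(A)-selected, made into strand-specific (dUTP) libraries and sequenced as paired ends, per the labels' protocols. The deposited table holds raw read counts per gene symbol for 12 libraries, with no normalization by the authors. The submitters' processing notes name featureCounts 2.0.1, STAR 2.7.7a and Trim Galore 0.6.6, and the genome build hg38. The sources used here give neither the annotation release, nor the strand setting, nor the handling of reads with several matches, so genes with near-identical copies are uncertain. Each column was mapped to 1 sample by its name.

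The members, the list of other pathway genes, the markers and the motifs were chosen with earlier results of these data known. Genes were filtered with filterByExpr (16946 kept), scaled by TMM and fitted with edgeR 4.0.16 (R 4.3.3, limma 3.58.1) by a robust quasi-likelihood model with 4 group means and 8 residual degrees of freedom. Contrasts were shTTK over shControl in each line, the difference of these, and the SCC-15 over the CAL-27 controls. P-values were two-sided and adjusted by Benjamini-Hochberg over all tested genes of a contrast, with calls at an adjusted p under 0.05. Each standard error was derived from the log2 fold change and its F statistic. Values in every library are given for the 10 called members with the smallest adjusted p in each knockdown comparison, the 6 with the smallest in the difference and the 6 with the largest called change between controls. RICTOR, SESN2 and C12orf66 were added to these after their values were seen. Other pathway genes were named as up to 3 in each direction and line by adjusted p, of which 1 is not reported here. Coordinates and exon lengths come from GENCODE release 29 (GRCh38), promoters from RefSeq (GRCh38.p14). Neighbours are the 10 nearest tested protein-coding genes on each side.

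Alternatives were RLE size factors, DESeq2 1.42.0, limma-voom, no count filter, 1 CPM in 3 libraries, the replicate number as a block, each library or both SCC-15 libraries numbered 1 left out, each line fitted alone and, added after the data were seen, a fit without chromosome 4. The steps were tested on simulated counts (16366 genes in the fit), where 56.0% of genes changed by 0.5 and 76.9% of genes changed by 1 on the log2 scale were recovered in CAL-27, and 58.2% and 78.0% in SCC-15. For the difference these were 48.5% and 69.4%, and between the controls 57.7% and 76.7%. Of the calls on simulated counts, 2.24% in CAL-27, 7.38% in SCC-15, 4.12% for the difference and 4.26% between the controls fell on unchanged genes, where 5% is the level aimed at. Few genes were changed in the simulation (in CAL-27, 109 by 0.5 and 91 by 1), and all others had equal means in the 4 groups. It held no deviating library and no chromosome region that moved together. In the real data 27.3% of tested genes were called in CAL-27, so these shares do not carry over to it.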

Additional observations from a re-analysis of the deposited data

Results flagged for a closer look

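The change with TTK knockdown differed between the lines for 14 members, by the test of the difference itself (SCC-15 log2 fold change minus CAL-27 log2 fold change, edgeR adjusted p under 0.05, n = 3 libraries per group). Positive differences were found for MTOR (0.33 ± 0.050, SE), TELO2 (0.33 ± 0.062), RHEB (0.22 ± 0.060), AKT1S1 (0.21 ± 0.055) and AKT1 (0.16 ± 0.056). MTOR and TELO2 were called in opposite directions in the lines, and RHEB, AKT1S1 and AKT1 were called lower in CAL-27 alone. Negative differences were found for SESN3 (-1.03 ± 0.15), LAMTOR3 (-0.78 ± 0.13), EIF4E (-0.58 ± 0.090), RPS6KB1 (-0.39 ± 0.098) and RPS6KB2 (-0.28 ± 0.070), which were called lower in SCC-15 alone. WDR59 (-0.26 ± 0.078) and ULK1 (-0.24 ± 0.070) were called higher in CAL-27 alone, and RPTOR (-0.22 ± 0.068) and MAPKAP1 (-0.19 ± 0.053) were called lower in both lines. The largest adjusted p of these was 0.0268, for AKT1. Among all tested genes 25.4% were called for such a difference, and 26.9% of the members were. Neighbours of EIF4E, LAMTOR3 and SESN3 had median differences of -0.60, -0.50 and -0.16. Their part in the members' differences was not tested.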

How the results depend on the processing

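The number of members called higher in SCC-15 was the one count over members or over all genes that moved by over 1.5 times. It was 6, and 3 with both SCC-15 libraries numbered 1 left out. Leaving out 1 library at a time gave 3 to 6, with 3 without SCC-15 control library 2 and without SCC-15 shTTK library 1. RICTOR, not among the 6, was among the 3 without both libraries numbered 1 and without shTTK library 1. No called member changed sign in any alternative run. Of the called members, 11 of 16 in CAL-27, 9 of 18 in SCC-15, 12 of 14 for the difference and 37 of 44 between the controls kept their call in every alternative that held them. MTOR, RPTOR, EIF4E, SESN3, LAMTOR3, FNIP2, MAPKAP1, RPS6KB1 and RPS6KB2 were the 9 in SCC-15. In the difference, AKT1 lost its call in 10 alternatives and ULK1 without SCC-15 shTTK library 3 (-0.17, adjusted p = 0.0659). EIF4B, FNIP2 and SEC13, not called for the difference, gained the call in at least 1 alternative. The median of the neighbours of EIF4E was -0.66, and -0.57 without SCC-15 control library 1. The fit without chromosome 4 does not hold EIF4E, LAMTOR3 and FNIP2, and it kept the other 15 calls of SCC-15.

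Same-numbered libraries of a line did not deviate together (correlations of their deviations from -0.0197 to 0.0345), so the numbers were not taken to pair them. With the replicate number as a block, the members called were 4 higher and 12 lower in CAL-27 and 6 higher and 11 lower in SCC-15, where WDR24 lost its call (adjusted p = 0.0578). With 3 libraries a group and these depths, changes of low members such as DEPTOR could not be resolved.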
